A study of Mus musculus with 6 samples.

Results

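The genes described here are 32 markers of macrophages and monocytes, out of 49315 genes in a table of bulk RNA sequencing counts from 6 mouse hearts. They were chosen by symbol, as genes used to recognise these cells in the heart, with earlier results of these data known. The symbols were matched to Ensembl identifiers through the GENCODE annotation. All 32 were in the table. Of these, 30 had enough counts to be tested for a difference between genotypes, and the 2 others, Cd209f and Ly6c2, are given by their counts. The hearts came from C57BL/6 mice, 3 with a conditional knock-in of the Txnip C247S mutation and 3 labelled wild-type with the unmutated gene. MerCreMer, a Cre recombinase switched on by tamoxifen, and 4-hydroxytamoxifen are named in the labels of all 6 samples. The labels do not give the promoter that drives the recombinase or the cells in which it acts, and it is unclear from them if the wild-type animals had it. Sex, age, litter and batch are not given either, so nothing but the label of separate samples stands behind the replicates.

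Macrophages of the adult heart have more than 1 origin. Resident macrophages, many of them seeded before birth, maintain themselves by division and carry the scavenger and uptake receptors Lyve1, Timd4, Folr2, Mrc1 and Cd163. Recruited macrophages arise from blood monocytes that follow chemokines through the receptor Ccr2 and carry the surface protein Ly6c2 when they enter. Both depend on the growth factor receptor Csf1r and on the transcription factor PU.1, which binds purine-rich DNA around the letters GGAA, and both take up dying cells, lipoproteins and debris.

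The upstream sequences of 5 markers are shown because these genes span the secreted, complement and protease groups described later and because their sequence holds the purine-rich letters of the PU.1 family or letters of a partner factor. Lyz2 and Ccl6 are the called members, F13a1 and C1qc were lower in each knock-in heart without being called, and Ctss differed less. Each line is taken from the 250 bases before the RefSeq start site on GRCm38.p6, 5′ to 3′ on the strand of the gene. The GENCODE genes of Lyz2 and C1qc begin 49 and 151 bases upstream of the RefSeq start, and those bases are not shown. The windows are chr10:117282322-117282522 for Lyz2, chr11:83593088-83593337 for Ccl6, chr13:37050245-37050494 for F13a1, chr4:136893066-136893164 for C1qc, all on the minus strand, and chr3:95526536-95526785 on the plus strand for Ctss. Capitals mark every match, on either strand, to GAGGAA or AGGAAGT (overlapping versions of the PU.1 family letters) or to TGTGGT (letters of the RUNX factors).
Lyz2: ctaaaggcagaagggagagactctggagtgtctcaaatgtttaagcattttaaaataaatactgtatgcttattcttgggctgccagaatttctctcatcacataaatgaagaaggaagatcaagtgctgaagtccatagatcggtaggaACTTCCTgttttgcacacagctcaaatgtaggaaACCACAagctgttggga
Ccl6: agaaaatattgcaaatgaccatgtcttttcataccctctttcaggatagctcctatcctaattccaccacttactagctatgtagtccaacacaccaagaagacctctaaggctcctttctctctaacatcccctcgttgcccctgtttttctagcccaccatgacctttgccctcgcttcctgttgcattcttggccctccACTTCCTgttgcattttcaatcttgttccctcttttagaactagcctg
F13a1: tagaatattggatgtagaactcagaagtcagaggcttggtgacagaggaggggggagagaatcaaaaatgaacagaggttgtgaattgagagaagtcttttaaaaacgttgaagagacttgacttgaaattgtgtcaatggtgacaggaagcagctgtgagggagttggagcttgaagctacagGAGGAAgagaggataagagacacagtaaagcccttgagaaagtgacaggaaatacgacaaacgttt
C1qc: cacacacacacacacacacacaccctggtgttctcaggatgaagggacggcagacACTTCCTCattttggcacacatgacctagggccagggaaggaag
Ctss: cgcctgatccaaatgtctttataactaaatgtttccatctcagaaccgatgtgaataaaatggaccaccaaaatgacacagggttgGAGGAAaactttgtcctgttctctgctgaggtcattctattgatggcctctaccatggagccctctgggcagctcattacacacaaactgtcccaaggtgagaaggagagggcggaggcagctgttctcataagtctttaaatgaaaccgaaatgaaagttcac
RefSeq windows were used for 26 of the 32 markers. Taken over every start site listed for a gene, GAGGAA occurred in 13 of the 26, against 25.9% of the 27025 genes with such 250-base windows. AGGAAGT, which was added after the sequences had been read, occurred in 9 of the 26 (34.6%), against 8.8% of those genes. TGTGGT occurred in 5 (19.2% against 15.9%) and TTGCNNAA, the letters of the C/EBP factors, in 2 (7.7% against 10.8%). A match of this kind is a description of letters and not a binding site. The markers with a GAGGAA window included Mrc1 and F13a1 with lower values as well as Aif1 and Fcgr3, whose groups overlapped.

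Each library held between 14146048 and 15620476 counts, and the 32 markers together took 6085 to 8797 of them, so that 3 counts, used here as the floor of detection, equal 0.192 to 0.212 CPM, the counts scaled to library size. Such intervals and floors cover counting error only. Markers of heart muscle were high in every library, with 232180 to 322831 counts of Myh6, and the defining macrophage genes Csf1r, Adgre1 and C1qa were counted in every heart. Txnip, the altered gene, encodes an inhibitor of thioredoxin and fell in the knock-in hearts, at 419 ± 24.9 CPM beside 751 ± 35.2 CPM in wild-type (SD, n = 3 each; log2 fold change −0.84 ± 0.09, edgeR adjusted p = 0.00379). A gene count does not read the mutated base. Wild-type replicate 3 and knock-in replicate 2 stood farthest from the other hearts of their genotypes, and 28.0% of the counts of that wild-type library were mitochondrial, beside 22.9% to 24.3% elsewhere. For some markers whose overlap or value turned on one of these libraries, it is also given without it.

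Most of the markers were at lower levels in knock-in than in wild-type hearts, but few of them passed a test adjusted over all genes. Lyz2 and Ccl6 were called lower, which is 2 of 30 tested markers, where 0.188% of all 12777 tested genes were called lower and 0.297% were called in either direction (edgeR quasi-likelihood test, Benjamini-Hochberg adjusted p under 0.05). No marker was called higher. Of the 30, 25 had a negative log2 fold change (knock-in over wild-type) and 5 a positive one. The median was −0.44, beside a negative value in 51.7% and a median of −0.01 for all tested genes. In 15 of the 30 each knock-in value lay below each wild-type value, as in 7.89% of all tested genes, and in 0 each lay above, as in 8.18%. At an unadjusted edgeR p under 0.05 there were 13 lower and 0 higher markers, beside 5.23% and 4.74% of all tested genes. Timd4 reached the count filter in 3 wild-type hearts and 1 knock-in heart, so its place among the tested genes depended on the genotype where it was higher. The markers were also chosen with earlier results of these data known. For both reasons these counts are given as a description and not as a test against the shares of all genes. In RNA from whole hearts, fewer macrophages and less RNA of these genes per macrophage cannot be told apart.

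**Figure D1:**
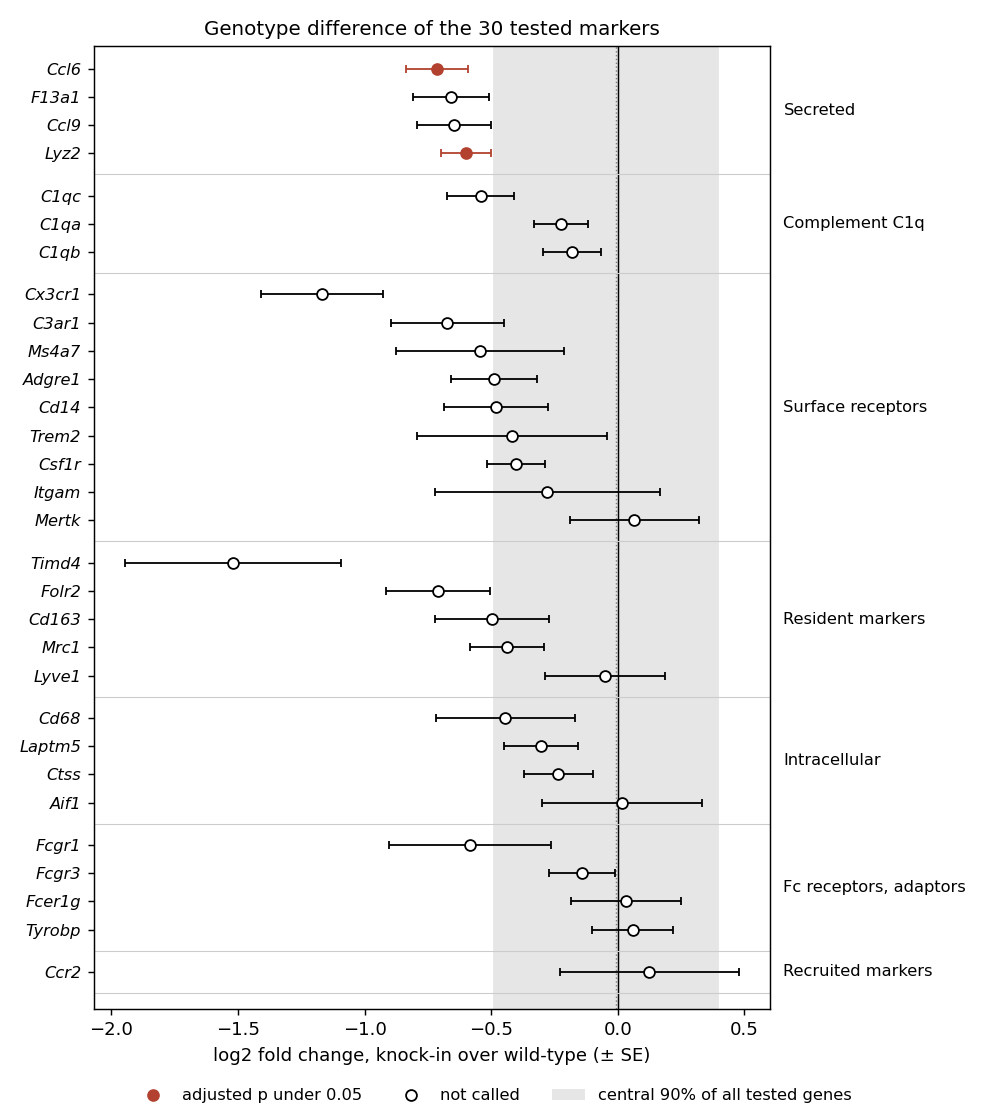
Log2 fold change (knock-in over wild-type, horizontal axis, bars ± SE) of the 30 tested markers, grouped by role. Filled red points are Lyz2 and Ccl6, the 2 called markers, and the grey band holds the central 90% of all tested genes. The secreted group and most surface receptors lie left of 0, while the adaptors Tyrobp and Fcer1g and the monocyte receptor Ccr2 lie near it.

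All 4 secreted products had separate groups, and both called markers were among them. Lyz2 (ENSMUSG00000069516, chromosome 10, 117277331 to 117282321, GRCm38), the lysozyme of macrophages, monocytes and neutrophils, had 120, 123 and 108 CPM in the knock-in hearts, against 175, 189 and 166 CPM in the wild-type hearts. Every knock-in heart lay below every wild-type heart and the gap between the groups exceeded the range within either. On the log2 scale it fell by 0.60 ± 0.10 (SE), with an edgeR adjusted p of 0.0399, and its level was 1.52-fold higher in wild-type. Of the 31-base words of Lyz2, 32.8% also occur in its neighbour Lyz1, but Lyz1 was rare, with 10, 12 and 12 counts in the knock-in and 15, 17 and 9 counts in the wild-type hearts, beside 1582 or more counts of Lyz2 in each library.

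Ccl6 (chromosome 11, 83587882 to 83593087) encodes a chemokine made by mouse myeloid cells. It had 13.3, 12.2 and 12.4 CPM in the knock-in hearts, against 20.5, 22.1 and 19.6 CPM in the wild-type hearts. The groups did not overlap and the knock-in hearts were close to each other. Its log2 fold change was −0.71 ± 0.12 (edgeR adjusted p = 0.0399). The related chemokine gene Ccl9 lies 9.25 kb away on the same strand and had 10.9, 9.15 and 8.72 CPM in the knock-in hearts, against 13.8, 16.7 and 14.5 CPM in the wild-type hearts. These groups did not overlap either, but the log2 fold change of −0.65 ± 0.15 did not pass over all genes (edgeR adjusted p = 0.139). F13a1, the A subunit of clotting factor XIII, which resident macrophages and monocytes make, had 29.4, 20.6 and 22.5 CPM in the knock-in hearts, against 41.5, 39.5 and 33.5 CPM in the wild-type hearts. The groups were again separate. Its log2 fold change was −0.66 ± 0.15, which edgeR did not call (adjusted p = 0.141) and DESeq2 did (adjusted p = 0.0206).

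For each of these 4 genes a permutation of the hearts' CPM (exact, two-sided) gave p = 0.1, which 3 against 3 hearts cannot go below. Both Lyz2 and Ccl6 lost the call when knock-in replicate 1 or 3 or any single wild-type heart was left out (edgeR adjusted p from 0.0791 to 0.306 for Lyz2 and from 0.0868 to 0.275 for Ccl6), and limma-voom called neither. The size of the difference moved little, from −0.64 to −0.54 for Lyz2 and from −0.75 to −0.66 for Ccl6 on the log2 scale. Without knock-in replicate 2 there were 4 calls, with Folr2 and Timd4 added.

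**Figure D2:**
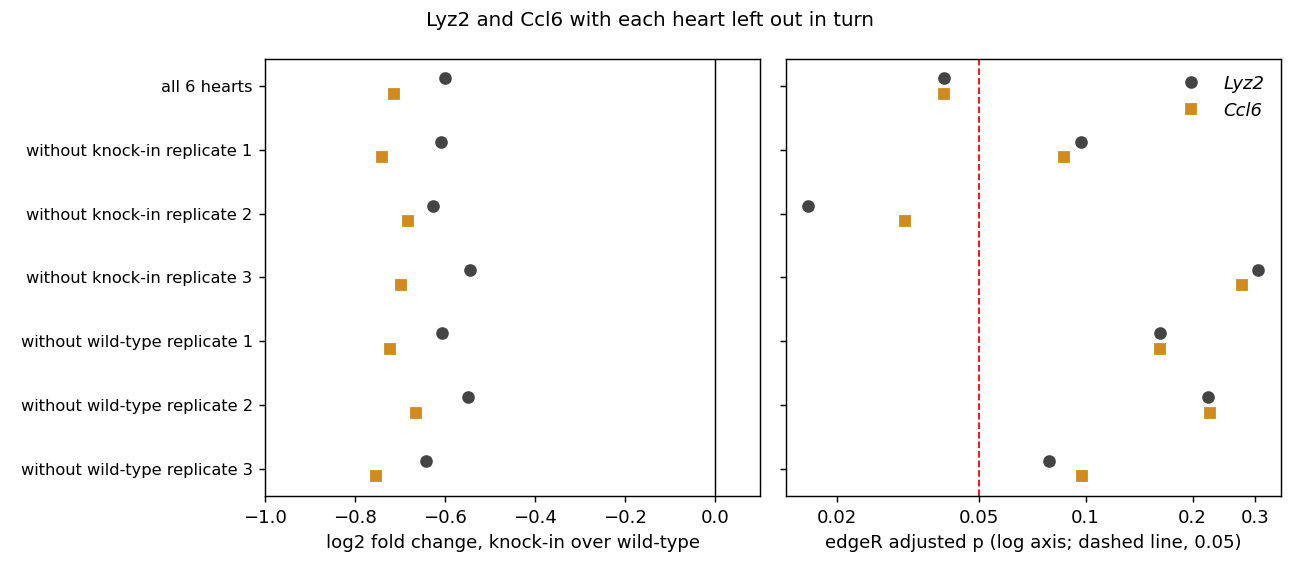
Left, log2 fold change (knock-in over wild-type) of Lyz2 (circles) and Ccl6 (squares) with all 6 hearts and with each heart left out. Right, the edgeR adjusted p of the same fits on a log axis, with 0.05 dashed. The fold changes stay between −0.75 and −0.54, while the adjusted p lies under 0.05 only with all hearts and without knock-in replicate 2.

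The 3 chains of complement C1q, which macrophages secrete and which tags debris for uptake, differed to unequal degrees although their genes lie side by side on chromosome 4 within 18.7 kb. C1qc had 26.1, 26.7 and 27.7 CPM in the knock-in hearts, against 42.6, 42.7 and 32.01 CPM in the wild-type hearts. All 3 knock-in hearts lay below the lowest wild-type heart, replicate 3. The log2 fold change was −0.54 ± 0.13 (edgeR adjusted p = 0.162). C1qa had 34.8, 36.1 and 36.3 CPM in the knock-in hearts, against 45.3, 41.6 and 38.2 CPM in the wild-type hearts, with a log2 fold change of −0.23 ± 0.11. For C1qb the values were 37.3, 34.1 and 35.8 CPM in the knock-in and 43.2, 43.1 and 35.2 CPM in the wild-type hearts, and wild-type replicate 3 lay among the knock-in values. The log2 fold change was −0.18 ± 0.12, and −0.27 without wild-type replicate 3. Per kilobase of exon, the levels of C1qa and C1qb were 34.3 ± 0.790 and 32.8 ± 1.48 CPM per kb in the knock-in hearts and 40.1 ± 3.42 and 37.2 ± 4.23 CPM per kb in the wild-type hearts. Within hearts C1qa stood above C1qb in 2 of 3 knock-in and 3 of 3 wild-type hearts. On the same scale C1qc stood at 13.9 ± 0.415 and 20.3 ± 3.18 CPM per kb in knock-in and wild-type hearts. Lyz2, at 88.7 ± 6.00 and 134 ± 8.73 CPM per kb in knock-in and wild-type hearts, was the most abundant marker per length in both genotypes, with C1qa and C1qb after it.

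**Figure D3:**
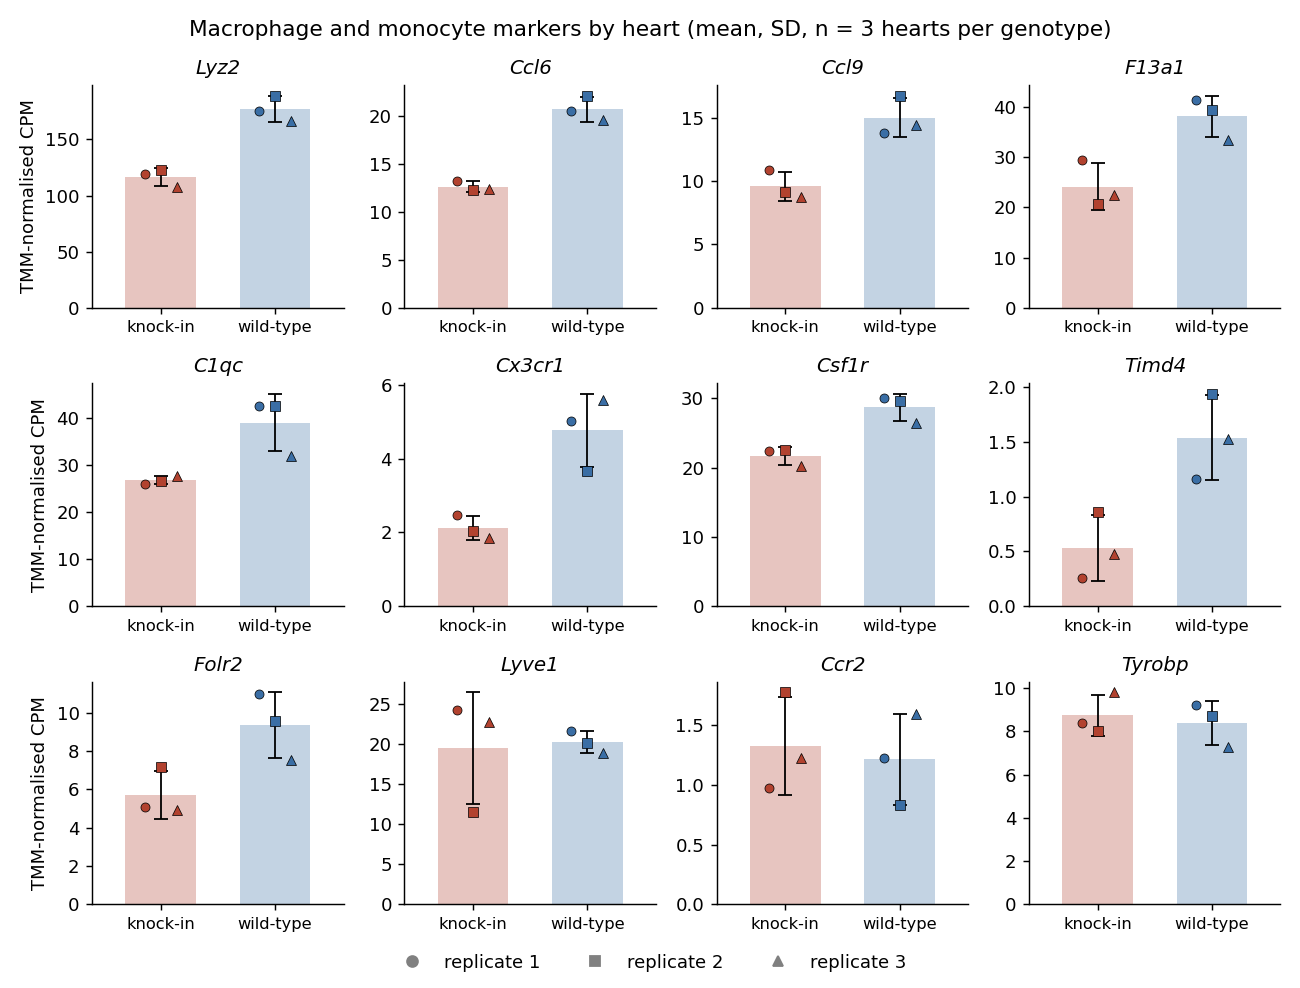
TMM-normalised CPM of 12 markers in each heart, knock-in left and wild-type right. Bars give the mean, error bars the SD (n = 3 hearts per genotype) and symbols the replicates. The knock-in and wild-type values are separate in the panels from Lyz2 to Folr2 and overlap for Lyve1, Ccr2 and Tyrobp.

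Among the surface receptors, the fractalkine receptor gene Cx3cr1 had the most negative log2 fold change. It had 2.47, 2.04 and 1.84 CPM in the knock-in hearts (38, 31 and 27 counts), against 5.04, 3.67 and 5.60 CPM in the wild-type hearts (74, 53 and 81 counts). The lowest wild-type heart lay well above the highest knock-in heart. The log2 fold change was −1.17 ± 0.24, a level 2.25-fold higher in wild-type, which edgeR did not call (adjusted p = 0.0966) and DESeq2 did (adjusted p = 0.0302). Cx3cl1, its ligand, had a log2 fold change of −0.47 ± 0.20 (edgeR adjusted p = 0.478). Csf1r, the receptor for the survival factor of the lineage, had 22.4, 22.6 and 20.2 CPM in the knock-in hearts, against 30.03, 29.6 and 26.5 CPM in the wild-type hearts. The groups did not overlap, and the log2 fold change was −0.40 ± 0.11 (edgeR adjusted p = 0.237). Its ligand genes Csf1 and Il34 had log2 fold changes of −0.33 ± 0.15 and 0.23 ± 0.27. Of the exon sequence of Csf1r, 15.1% is shared with Hmgxb3 on the opposite strand, which had a log2 fold change of −0.22 ± 0.12.

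Adgre1, which encodes the F4/80 antigen of mouse macrophages, had 6.63, 5.46 and 5.58 CPM in the knock-in hearts, against 8.24, 9.27 and 7.33 CPM in the wild-type hearts. C3ar1, the receptor for the complement fragment C3a, had 2.47, 3.55 and 3.81 CPM in the knock-in hearts, against 4.83, 4.77 and 6.08 CPM in the wild-type hearts. Both genes, and Cd14, the co-receptor for bacterial lipopolysaccharide, had groups that did not overlap, with log2 fold changes of −0.49 ± 0.17, −0.67 ± 0.22 and −0.48 ± 0.21 (edgeR adjusted p from 0.322 to 0.468). Ms4a7, a membrane protein of tissue macrophages, and Trem2, a lipid receptor of phagocytes, overlapped between the genotypes, at −0.55 ± 0.33 and −0.42 ± 0.37. Mertk, a receptor for the uptake of dying cells, had 6.37, 3.82 and 6.95 CPM in the knock-in hearts, against 6.74, 5.33 and 4.29 CPM in the wild-type hearts. Its log2 fold change of 0.07 ± 0.25 turned negative when knock-in replicate 1, knock-in replicate 3 or wild-type replicate 3 was left out. Itgam, the integrin CD11b of monocytes, neutrophils and some macrophages, had a log2 fold change of −0.28 ± 0.44, which was positive without knock-in replicate 2 (0.05) or wild-type replicate 3 (0.14). Its value is uncertain because 68.7% of its exon sequence is also annotated to Gm49368 on the same strand.

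Of the 6 resident markers, 5 were tested, all with negative log2 fold changes, and 3 had separate groups. Timd4, a phosphatidylserine receptor carried by long-lived resident macrophages, had 4, 13 and 7 counts in the knock-in hearts, against 17, 28 and 22 counts in the wild-type hearts. In CPM these were 0.260, 0.856 and 0.477 in the knock-in hearts and 1.16, 1.94 and 1.52 in the wild-type hearts, and the lowest knock-in heart was close to the floor of detection. The log2 fold change was −1.52 ± 0.43 (edgeR adjusted p = 0.233), and it was −2.04 with a call when knock-in replicate 2 was left out. Folr2, a folate receptor, had 5.07, 7.17 and 4.90 CPM in the knock-in hearts, against 10.96, 9.55 and 7.54 CPM in the wild-type hearts. These groups were separate by a narrow gap between knock-in replicate 2 and wild-type replicate 3, with a log2 fold change of −0.71 ± 0.20 (edgeR adjusted p = 0.240), and −0.90 with a call without knock-in replicate 2. Of the exon sequence of Folr2, 63.1% overlaps Gm10602 on the opposite strand, which had 0.24 ± 0.21, and the strand setting of the counting is not given in the sources used here.

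Mrc1, the mannose receptor CD206, had 17.9, 13.6 and 13.8 CPM in the knock-in hearts, against 21.04, 22.0 and 18.3 CPM in the wild-type hearts, with separate groups and a log2 fold change of −0.44 ± 0.15. Cd163, the scavenger receptor for haemoglobin bound to haptoglobin, had 11.6, 7.90 and 9.60 CPM in the knock-in hearts, against 18.5, 12.5 and 10.2 CPM in the wild-type hearts. Knock-in replicate 1 lay above wild-type replicate 3 in Cd163, and the log2 fold change was −0.50 ± 0.22, becoming −0.22 without wild-type replicate 1 and −0.67 without wild-type replicate 3. Lyve1, a hyaluronan receptor, is found on resident macrophages and on lymphatic endothelium. It had 24.2, 11.5 and 22.7 CPM in the knock-in hearts, against 21.6, 20.1 and 18.8 CPM in the wild-type hearts. Its lowest value was knock-in replicate 2, its log2 fold change was −0.05 ± 0.24 with all hearts, and it became 0.23 without that library. The blood vessel marker Vwf was also lowest in knock-in replicate 2, with 640 counts beside 2076 and 2252 in the other knock-in hearts, and so was the lymphatic receptor gene Flt4, with 136 counts beside 258 and 227. Summed over the lists, blood endothelium was lowest in knock-in replicate 2, at 1439, 956 and 1383 CPM in knock-in replicates 1, 2 and 3. The lymphatic endothelium list went the other way from Flt4, with its highest knock-in sum in replicate 2 (52.6, 62.7 and 58.0 CPM). The part of endothelial content in the Lyve1 value was not tested. Cd209f, a lectin of resident macrophages, had 1, 2 and 2 counts in the knock-in hearts and 2, 0 and 3 counts in the wild-type hearts, at or below the floor.

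Both recruited markers were rare. Ccr2, the receptor that brings monocytes out of the bone marrow and into tissue, had 15, 27 and 18 counts in the knock-in hearts, against 18, 12 and 23 counts in the wild-type hearts. The groups overlapped throughout, and the log2 fold change of 0.12 ± 0.35 changed sign without knock-in replicate 2 or wild-type replicate 2. Ly6c2, the Ly6C antigen gene of inflammatory monocytes, had 5, 6 and 3 counts in the knock-in hearts, against 2, 0 and 0 counts in the wild-type hearts. The pooled ratio, 14 against 2 counts, was 6.74 (95% exact binomial counting interval 1.55 to 61.1), an interval of the pooled counts and not of the hearts. Ly6c2 was below the count filter. Without the filter edgeR did not call it (adjusted p = 0.32), and DESeq2 gave an unadjusted p of 0.0661 and no adjusted one. Of the 31-base words of Ly6c2, 20.8% occur in Ly6c1, an endothelial gene with 1234 to 2626 counts per heart, and the count of Ly6c2 is uncertain for that reason.

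Set beside each other in the same hearts, the summed level of the 6 resident markers was 59.1, 41.1 and 51.6 CPM in the knock-in hearts, against 73.3, 66.1 and 56.5 CPM in the wild-type hearts. These sums overlapped, since knock-in replicate 1 lay above wild-type replicate 3. They were separate when either of these hearts was left out, and overlapped without any other single heart. The summed level of the 2 recruited markers was 1.30, 2.17 and 1.43 CPM in the knock-in hearts, against 1.36, 0.830 and 1.59 CPM in the wild-type hearts. Resident over recruited, the ratio of the sums was 45.5, 18.9 and 36.1 in the knock-in hearts, against 53.9, 79.7 and 35.5 in the wild-type hearts, and wild-type replicate 3 lay just below the middle knock-in value. Without that wild-type heart the ratios were separate, but they overlapped when any other single heart was left out. The ratio rests on few counts of recruited markers, and a difference between resident and recruited markers was not tested.

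**Figure D4:**
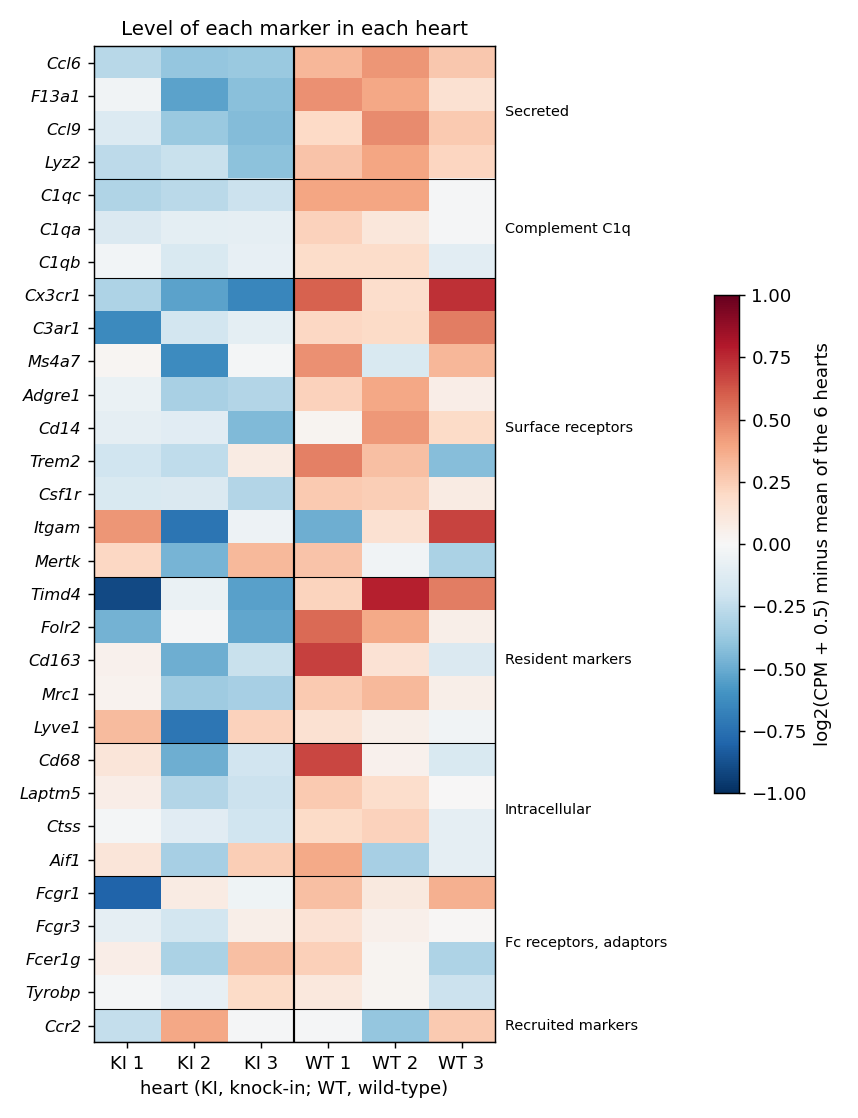
Level of each of the 30 tested markers in each heart, as log2(CPM + 0.5) minus the mean of the 6 hearts, with knock-in hearts (KI) left of the line and wild-type hearts (WT) right of it. Red is above and blue below the mean, with the scale ending at 1 and −1. The secreted genes lie below the mean in the knock-in and above it in the wild-type hearts, while Tyrobp, Fcer1g and Ccr2 have no such split.

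The Fc receptors and their signalling adaptors had a median log2 fold change of −0.05. Tyrobp, the adaptor DAP12 that carries an activation motif for Trem2 and related receptors, had 8.38, 8.03 and 9.81 CPM in the knock-in hearts, against 9.19, 8.72 and 7.26 CPM in the wild-type hearts. Fcer1g, the common gamma chain that serves Fc receptors, had 6.76, 5.07 and 8.03 CPM in the knock-in hearts, against 7.69, 6.57 and 5.12 CPM in the wild-type hearts. Both genes overlapped throughout, with log2 fold changes of 0.06 ± 0.16 and 0.03 ± 0.22. Both turned negative when knock-in replicate 3 or wild-type replicate 3 was left out, at −0.036 and −0.11 without that wild-type heart. Fcgr3, a receptor for immune complexes, stood at −0.14 ± 0.13, and 17.7% of its words occur in the inhibitory receptor gene Fcgr2b. Fcgr1, the high-affinity receptor for IgG and a marker of macrophages against dendritic cells, had 13, 30 and 26 counts in the knock-in hearts, against 35, 29 and 36 counts in the wild-type hearts. In CPM these were 0.845, 1.97 and 1.77 in the knock-in hearts and 2.38, 2.01 and 2.49 in the wild-type hearts, so that the groups were separate by the narrow gap between replicates 2 of the genotypes. Its log2 fold change was −0.58 ± 0.32 (edgeR adjusted p = 0.606), and −0.28 without knock-in replicate 1. Fcgr1 lies 264 kb from Txnip on chromosome 3 and Ctss lies 1002 kb from it. Neutrophils also carry Tyrobp, Fcer1g and Fcgr3, and summed neutrophil markers had higher values in the knock-in hearts, as given with the other cell types. Their part in these values was not tested.

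The intracellular markers lay between these groups. Laptm5, a lysosomal membrane protein of blood cells, had a log2 fold change of −0.30 ± 0.15, and Ctss, the protease cathepsin S that trims the invariant chain of MHC class II, one of −0.23 ± 0.14. In both, knock-in replicate 1 lay above wild-type replicate 3. When either of these hearts was left out the groups were separate. The log2 fold changes were −0.37 for Laptm5 and −0.33 for Ctss without the wild-type heart, and −0.41 and −0.28 without the knock-in heart. Cd68, a glycoprotein of macrophage endosomes, had 4.68, 2.90 and 3.68 CPM in the knock-in hearts, against 7.08, 4.43 and 3.80 CPM in the wild-type hearts. Wild-type replicate 1 stood above the rest, and the log2 fold change of −0.44 ± 0.27 became −0.13 without it. Aif1, the actin-binding protein IBA1, had 2.08, 1.38 and 2.32 CPM in the knock-in hearts, against 2.59, 1.38 and 1.73 CPM in the wild-type hearts, with a log2 fold change of 0.02 ± 0.31 that changed sign in several fits without 1 heart. None of the 4 was called by edgeR or DESeq2, and none had separate groups with all hearts.

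Summed over all 32 markers, the level was 446, 405 and 414 CPM in the knock-in hearts, against 599, 596 and 520 CPM in the wild-type hearts. The knock-in sum was 0.738 of the wild-type sum, and 0.773 when Lyz2, which made up 26.0% to 30.3% of the sum in the knock-in hearts and 29.2% to 31.99% of it in the wild-type hearts, was left out. By role, knock-in over wild-type, the ratio of the sums was 0.650 for the secreted genes, 0.738 for surface receptors, 0.775 for resident markers, 0.810 for C1q, 0.827 for intracellular markers, 0.950 for Fc receptors and adaptors and 1.30 for the recruited markers. The recruited sums overlapped between the genotypes and rest on few counts, those of Ly6c2 being uncertain. Ccr2 by itself had a fold change of 1.09. The ratios by role are descriptions, since the markers were chosen with earlier results of these data known.

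In 9 further lists of genes of the lineage and its pathways, 142 genes in all, 112 were tested and 0 were called by edgeR, with 18 lower and 4 higher at an unadjusted p under 0.05 and 3 called lower by DESeq2. At 0.297% of all tested genes called by edgeR, a count of 0 in 112 is near the background. The shares over all genes were 5.23% lower and 4.74% higher at an unadjusted p under 0.05, and 0.506% lower by DESeq2. Among 16 other genes of resident macrophages, 13 were tested, 11 had negative log2 fold changes and the median was −0.46. Fcrls, a scavenger-type receptor of mouse macrophages, had the smallest p there, with 4.30 ± 0.429 CPM in the knock-in and 7.84 ± 0.996 CPM in the wild-type hearts (SD, n = 3 each; log2 fold change −0.86 ± 0.18, edgeR adjusted p = 0.0981, DESeq2 adjusted p = 0.0382). The summed level of this list did not follow its median, at 505 ± 22.5 CPM in knock-in and 502 ± 49.8 CPM in wild-type hearts, and most of the sum was Selenop and Gas6, which other heart cells also make. Among 15 other monocyte genes, 5 were tested and all 5 had positive log2 fold changes (median 0.70). Their summed level was 59.2 ± 12.4 CPM in knock-in and 54.9 ± 7.21 CPM in wild-type hearts with overlapping groups, and most of it was Ace, which endothelium also makes. Plac8, a monocyte gene too rare to be tested and named after its values were seen, had 19, 9 and 10 counts in the knock-in hearts, against 1, 5 and 1 counts in the wild-type hearts.

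In the list of lineage growth and transcription factors, Nr1h3, the oxysterol receptor LXR alpha, had 12.5 ± 1.26 CPM in the knock-in and 20.4 ± 2.43 CPM in the wild-type hearts (log2 fold change −0.71 ± 0.14, edgeR adjusted p = 0.0842, DESeq2 adjusted p = 0.0115). Spi1, which encodes PU.1, was named after its values were seen and had 26, 29 and 30 counts in the knock-in hearts, against 47, 48 and 31 counts in the wild-type hearts, with a log2 fold change of −0.62 ± 0.26. Cfp, the complement protein properdin, had the smallest p of the complement list at −1.03 ± 0.24 (edgeR adjusted p = 0.147, DESeq2 adjusted p = 0.0413). In the lysosome, pan-leukocyte and activation motif lists the smallest p belonged to the scavenger receptor gene Msr1 (−0.84 ± 0.27), the oxidase subunit gene Cybb (−0.70 ± 0.19) and the inhibitory receptor gene Pirb (−0.61 ± 0.24), none of them called by edgeR or DESeq2. The 19 tested lysosome and uptake genes had a median of 0.04 and the 14 tested genes of signalling through activation motifs one of −0.15. The 19 pan-leukocyte genes had a median of −0.11, and Ptprc, the CD45 antigen of all white blood cells, had 0.26 ± 0.27. The 6 tested genes of antigen presentation had a median of 0.05, with Ciita, the regulator of MHC class II, at 0.88 ± 0.51.

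**Figure D5:**
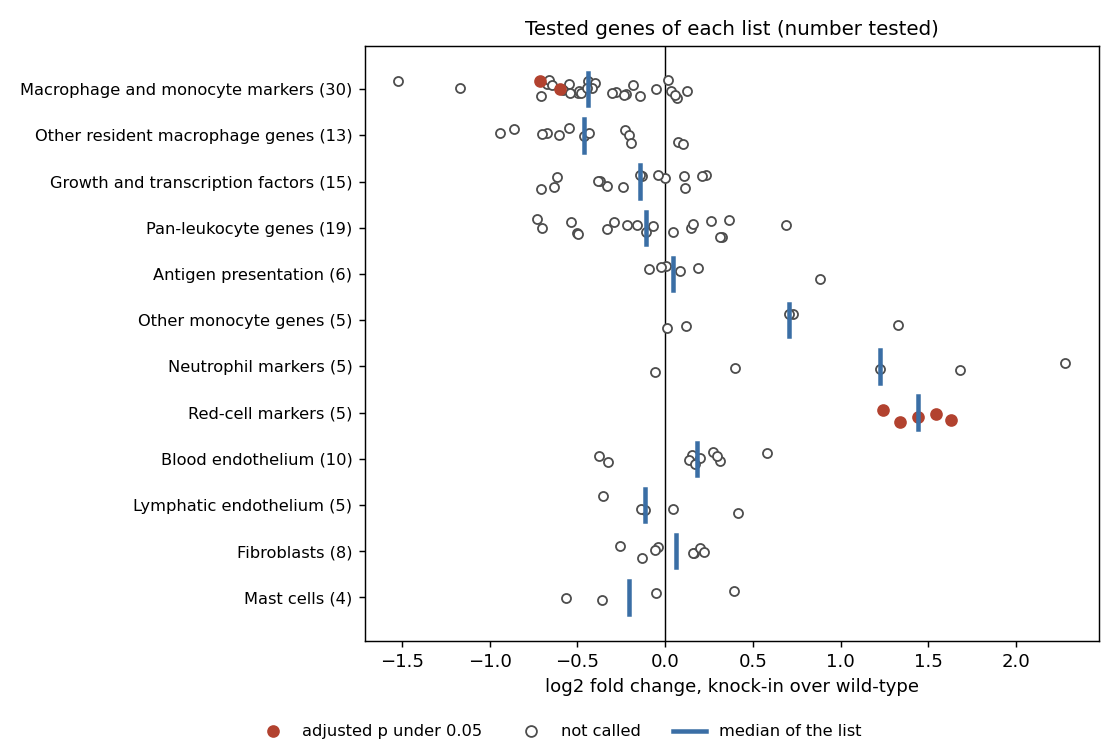
Log2 fold change (knock-in over wild-type) of every tested gene in the 32 markers and in lists for related and other cell types, 1 point per gene, with the number tested in brackets. Filled red points were called and blue bars are medians. Medians lie at −0.44 for the markers and −0.46 for other resident genes, and at 0.70, 1.23 and 1.44 for other monocyte, neutrophil and red-cell genes.

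Red-cell markers, and the sum of the neutrophil markers, were higher in each knock-in heart than in any wild-type heart. Of 13 neutrophil markers, 5 were tested with a median of 1.23 and 0 were called by edgeR. S100a9, a calcium-binding protein of neutrophils and monocytes, had 123, 139 and 66 counts in the knock-in hearts, against 28, 48 and 22 counts in the wild-type hearts (log2 fold change 1.68 ± 0.33, edgeR adjusted p = 0.0897), and DESeq2 called it (adjusted p = 4.97e-04). The summed neutrophil level was 11.4 to 20.2 CPM in the knock-in and 5.45 to 9.06 CPM in the wild-type hearts. Elane, Mpo and Ly6g, also in this list, were at 0 or 1 count in every heart. All 5 red-cell markers were called higher, and their summed level was 1446 to 1914 CPM in the knock-in and 463 to 634 CPM in the wild-type hearts. Lymphocyte markers were near the floor, with 1 of 14 tested, Ighm, at −0.36 ± 0.24. Blood endothelium had a median of 0.18, lymphatic endothelium −0.12, fibroblasts 0.06 and mast cells −0.20, with 0 called by edgeR or DESeq2 in these 4 lists. Of 10 heart muscle genes, Myl2, a myosin light chain, was called higher (log2 fold change 0.55 ± 0.09, edgeR adjusted p = 0.0399), and 3 were higher at an unadjusted edgeR p under 0.05. The summed heart muscle level was 106050, 99203 and 102720 CPM in the knock-in hearts, against 89996, 88666 and 91969 CPM in the wild-type hearts, without overlap. The labels do not say whether hearts were perfused. The red-cell, neutrophil and heart muscle sums moved with genotype alongside the marker values, and their part in the result was not tested.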

How the data were processed

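The authors deposited raw whole-number counts for 49315 genes. Among the tools in the submitters' processing notes are featureCounts from Subread 1.5.2, STAR and DESeq2, with GRCm38.p6 as build. Strand setting, annotation release and how multiply matching reads were treated: not given in the sources used here. Overlapping or similar genes can therefore gain or lose reads. RNA was isolated on silica columns and libraries made with a NEBNext Ultra II kit, per the labels' protocols.

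Columns were matched to samples by description. Symbols and positions came from GENCODE M21 (GRCm38), which held 49056 of the 49315 identifiers. The filter filterByExpr, TMM scaling and edgeR 4.0.16 (glmQLFit with robust estimation, glmQLFTest, R 4.3.3) were applied to all 6 libraries with genotype and no covariate. A gene was called at 0.05 after Benjamini-Hochberg adjustment over all 12777 tested genes. Standard errors were derived from the fold change and its F statistic, and CPM are TMM-normalised. Replicate pairs differed by more than counting error (chi-square over its degrees of freedom from 6.70 to 25.1), so none was 1 library counted in duplicate. This value cannot show that the libraries came from separate animals, and each heart counted as 1 replicate by its label. P-values measure the spread between these samples only. The functions were tested on simulated counts.

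The members and lists were chosen with earlier results of these data known. The text names all 32 members, the altered gene, Lyz1, and in each other list the called genes or the gene with the smallest p, some of which are not reported here. Other genes, among them Spi1, Plac8, Csf1, Il34, Cx3cl1, Ptprc, Vwf, Flt4 and genes that overlap a member, were chosen after their values were seen. Shared words are 31-base words of the longest transcript found in transcripts of other genes. Promoter letters came from RefSeq windows. Alternatives were other scalings, filters and tools (DESeq2 1.42.0, limma 3.58.1), mitochondrial genes left out and each heart left out. A fit of 4 hearts, without knock-in replicate 2 and wild-type replicate 3, was chosen after seeing the data.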

Additional observations from a re-analysis of the deposited data

How the results depend on the processing

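The median log2 fold change of the markers kept its sign in all 16 alternatives (−0.51 to −0.34), as did that of the resident markers (−0.67 to −0.36). The summed level, knock-in over wild-type, lay between 0.706 and 0.758 in the 11 alternatives that give it. Scaling, the 1 CPM filter, no robust estimation and leaving out mitochondrial genes kept the calls of Lyz2 and Ccl6 and no others, with 36 to 40 genes called in all. Without a filter 317 genes and 8 markers were called, with DESeq2 134 and 4, with limma-voom 18 and 0, and with the 4 hearts left without knock-in replicate 2 and wild-type replicate 3, chosen after seeing the data, 392 and 8. Leaving out 1 heart gave 5 to 174 genes and 0 to 4 markers. In the fits that called any marker, the called markers were all lower in the knock-in hearts. No marker was called with limma-voom, or without knock-in replicate 1 or 3 or any single wild-type heart. The cause of these moves was not tested.

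Signs turned for 7 uncalled markers. With library-size scaling Fcer1g had −0.0073 and Aif1 −0.023, and with the 4 hearts Lyve1 had 0.18 and Itgam 0.47. Without 1 heart, Aif1 ran from −0.17 to 0.30, Mertk from −0.10 to 0.30, Fcer1g from −0.13 to 0.20, Tyrobp from −0.036 to 0.13, Ccr2 from −0.14 to 0.36, Lyve1 from −0.23 to 0.23 and Itgam from −0.71 to 0.14. Depth limits Timd4, Trem2, Ccr2, Ly6c2 and Cd209f, with at most 28 counts in a heart. No paired analysis was possible because the labels number no replicates and the numbers follow accession order.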
